A study of Mus musculus with 6 samples.

Results

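The genes *Ifit1*, *Ifit2*, *Ifit3*, *Isg15*, *Irf7*, *Irf9*, *Usp18*, *Rsad2*, *Mx1* and *Bst2* are induced by type I interferons and were followed in RNA-seq libraries of newborn mouse parietal bone. They were picked by name, and the rows of all 10 were found among the 44556 gene symbols of the count tables. The OsxCre group held 3 libraries of newborns that carry Cre recombinase under the Osterix (*Osx*) promoter, which is active mainly in osteoblast precursors. The OsxCre;Stat3fl/fl group held 3 libraries of newborns with the same Cre and both *Stat3* alleles floxed, so that Cre can remove internal exons of *Stat3* in those cells. The mice were littermates on the C57BL/6 background, and the controls carry Cre as well, so the comparison was between the states of *Stat3* and not with or without Cre. Bone tissue also holds cells in which this promoter is not active, such as blood and vessel cells, and these keep *Stat3*. The question was whether the antiviral genes differ between calvaria of the OsxCre and OsxCre;Stat3fl/fl genotypes.

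The libraries summed to between 8193651 and 12080044 counts, and each OsxCre;Stat3fl/fl library was smaller than each OsxCre library. Values are given as CPM, counts relative to the total of a library after TMM normalization, whose factors ran from 0.933 to 1.04. All 10 genes passed the filter on low counts, which left 15600 genes. Genes were compared by the quasi-likelihood test of edgeR, and its p-values are adjusted over all of these. The targeted gene *Stat3* had 149.5, 134.2 and 141.0 CPM in the OsxCre libraries and 152.5, 154.3 and 154.9 CPM in the OsxCre;Stat3fl/fl libraries, a log2 fold change of 0.12 (SE 0.07, edgeR adjusted p = 0.442). The count of the whole gene was thus not lower, and its groups did not overlap, under the label OsxCre;Stat3fl/fl, and reads of the floxed exons were not analysed here. The osteoblast marker *Col1a1* had at least 82454 counts in every library. *Xist*, the RNA of the inactive X chromosome, had between 7333 and 12392 counts in the 6 libraries and the Y-linked *Ddx3y* and *Kdm5d* had 0 counts, whereas the study's figure legend describes male newborns.

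Type I interferons bind a receptor made of IFNAR1 and IFNAR2, whose kinases JAK1 and TYK2 phosphorylate STAT proteins. These join IRF9 in a complex that enters the nucleus and binds the interferon-stimulated response element (ISRE) in the promoters of antiviral genes. STAT3 is activated by the same receptors and by cytokines of the gp130 family. Among the genes described here, IRF9 and IRF7 are transcription factors of the pathway, ISG15 and USP18 act as a ubiquitin-like modifier and the protease that removes it, and the others act against viruses.

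Promoters of 4 members whose RefSeq windows hold the response element are printed here because this element is what the group is known to share. The letters GAAANNGAAA were searched on both strands in the 250 bases before each annotated start in RefSeq's GRCm38.p6 tables. A match was found in 5 of the 10 windows of 8 members, and in 2.98% of all 32851 windows. Of 50 windows of other interferon-stimulated genes, a list read further below, 10 (20%) held a match. The matched genes were *Ifit1*, *Ifit3*, *Isg15*, *Rsad2* and *Bst2*. In the sequences, read 5′ to 3′ on the strand of the gene, capitals mark the matches. The stretches of *Ifit1*, *Isg15*, *Rsad2* and *Bst2* end at the base before the start.

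*Ifit1*, chr19:34640769-34640888, plus strand: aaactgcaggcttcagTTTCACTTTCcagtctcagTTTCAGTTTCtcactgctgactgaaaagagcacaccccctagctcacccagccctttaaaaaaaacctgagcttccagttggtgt
*Isg15*, chr4:156200819-156200958, minus strand: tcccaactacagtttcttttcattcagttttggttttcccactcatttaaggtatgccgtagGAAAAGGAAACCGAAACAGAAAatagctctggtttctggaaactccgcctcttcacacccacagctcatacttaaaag
*Rsad2*, chr12:26456453-26456592, minus strand: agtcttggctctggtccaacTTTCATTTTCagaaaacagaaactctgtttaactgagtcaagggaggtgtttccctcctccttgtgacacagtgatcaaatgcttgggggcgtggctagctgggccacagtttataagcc
*Bst2*, chr8:71537473-71537622, minus strand: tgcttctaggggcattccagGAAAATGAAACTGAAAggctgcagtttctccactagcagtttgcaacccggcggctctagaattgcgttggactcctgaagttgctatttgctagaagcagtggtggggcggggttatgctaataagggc

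The matches of *Ifit1* begin 104 and 85 bases before its start. In *Isg15*, 3 matches overlap in a run that begins 78 bases before the start, and in *Bst2* a pair overlaps from 130 bases before it. The *Rsad2* match begins 120 bases before the start. These letters were not found in the windows of *Ifit2*, *Irf7* and *Irf9*, and *Usp18* and *Mx1* are named only. The letters TTCNNNGAA, the palindromic core bound by STAT dimers, were found in 2 of the 10 windows, those of *Ifit2* and *Bst2*. They were found in 7.02% of all windows and in 4 of the 50 (8%) of the other interferon-stimulated genes.

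*Irf7* and *Bst2* rose in the OsxCre;Stat3fl/fl libraries, and the other 8 genes had higher mean values that did not pass the adjusted test. In all, edgeR called 2 of 10 genes upregulated at an adjusted p under 0.05 and 0 downregulated, where 0.776% of all genes tested were upregulated and 0.481% downregulated. At an unadjusted p under 0.05, 8 of the 10 were higher, and 0 lower, where 8.03% of all genes tested were higher and 8.34% lower. Every OsxCre;Stat3fl/fl library lay above every OsxCre library for 7 of the 10, and for 0 the reverse held, where 10.8% of all genes tested lay above and 12.2% below. All 10 log2 fold changes were positive, where 49.3% of all genes tested were. Over all genes edgeR called 121 upregulated and 75 downregulated with TMM, 111 and 114 with library totals, and 121 and 5451 without scaling. The log2 fold changes of the 10 genes were between 0.36 and 0.86, with a median of 0.64. The median over all 15600 genes tested was 0.00 and the 95th percentile 0.59. The 10 log2 fold changes were positive with each scaling, except *Ifit2* at -0.01 without scaling for library size, where the median of all genes was -0.38 and all 10 genes lay above it. In bulk RNA, fewer cells of a type and less RNA per cell cannot be told apart. With 1 library left out, edgeR called 0 of the 10 in 4 of the 6 fits. It called *Rsad2* and *Bst2* without OsxCre library 3 and *Ifit3* and *Irf7* without OsxCre;Stat3fl/fl library 2, so that none of these fits called *Irf7* and *Bst2* together. Since the genes were chosen with results of these data known, these counts describe the list and are no test of it.

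**Figure D1:**
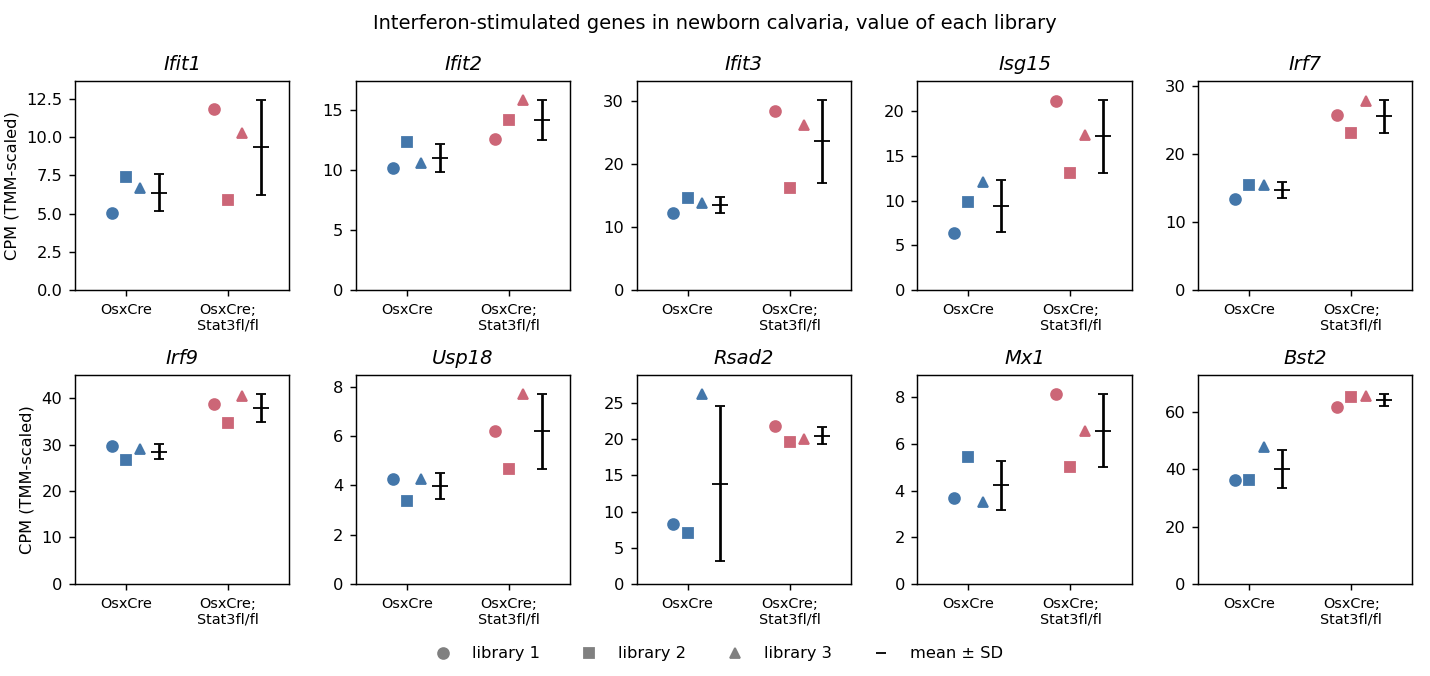
CPM (scaled by TMM) of the 10 genes in each library, with OsxCre in blue and OsxCre;Stat3fl/fl in red, a symbol for each library, and black bars for the mean ± SD of 3 libraries per genotype. The genotypes do not overlap for 7 genes, and OsxCre library 3 is above all 3 OsxCre;Stat3fl/fl libraries for *Rsad2* alone.

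*Irf7* (chr7:141263183-141266499, GRCm38.p6) encodes the factor that amplifies the response by driving interferon genes. It had 13.4, 15.4 and 15.4 CPM in the OsxCre libraries and 25.8, 23.1 and 27.9 CPM in the OsxCre;Stat3fl/fl libraries. The lowest OsxCre;Stat3fl/fl library was therefore well above the highest OsxCre library. The means were 14.7 ± 1.17 (SD, n = 3) and 25.6 ± 2.39 CPM (SD, n = 3), which is 1.73-fold higher, with a log2 fold change of 0.80 (SE 0.12, edgeR adjusted p = 0.0279). When a library was left out, the log2 fold change stayed between 0.73 and 0.87. The adjusted p from edgeR was 0.107, 0.087 and 0.0654 without OsxCre library 1, 2 or 3, and 0.0785, 0.044 and 0.126 without OsxCre;Stat3fl/fl library 1, 2 or 3. Over the 9 other settings it ranged from 0.000616 to 0.123.

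*Irf9* (chr14:55603985-55610030, GRCm38.p6) encodes the subunit that carries the STAT complex to DNA. It had 29.7, 26.6 and 29.1 CPM in the OsxCre libraries and 38.7, 34.6 and 40.5 CPM in the OsxCre;Stat3fl/fl libraries. The genotypes were apart, at 28.5 ± 1.65 and 37.9 ± 3.01 CPM (SD, n = 3 each). The log2 fold change was 0.41 (95% interval 0.19 to 0.64) and the edgeR adjusted p = 0.0954. The difference of *Irf9* was thus smaller in size than that of *Irf7*, although the difference between the genes was not tested. *Irf9* was at 0.04 on this scale when library sizes were not scaled.

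*Bst2* (chr8:71534255-71537472, GRCm38.p6) encodes tetherin, a membrane protein that holds budding virus particles at the cell surface. It had the most counts of the 10 genes, between 368 and 573 per library. Its values were 36.4, 36.4 and 48.0 CPM in the OsxCre libraries and 61.9, 65.4 and 65.7 CPM in the OsxCre;Stat3fl/fl libraries. OsxCre library 3 was higher than the other OsxCre libraries and still below all OsxCre;Stat3fl/fl libraries. The means were 40.3 ± 6.67 and 64.3 ± 2.09 CPM (SD, n = 3 each), with a log2 fold change of 0.67 (SE 0.12, edgeR adjusted p = 0.0445). Without OsxCre library 3, the log2 fold change was 0.82 and the adjusted p from edgeR was 0.0194. Without OsxCre library 1 or 2 the adjusted p was 0.159 or 0.139, and without OsxCre;Stat3fl/fl library 1, 2 or 3 it was 0.0972, 0.0986 or 0.174, with log2 fold changes of at least 0.60. Over the 9 other settings the adjusted p ranged from 0.000543 to 0.198.

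*Isg15* (chr4:156199424-156200818, GRCm38.p6) encodes a small protein that is joined to other proteins during the response. It had 6.36, 9.89 and 12.1 CPM in the OsxCre libraries and 21.2, 13.1 and 17.4 CPM in the OsxCre;Stat3fl/fl libraries. The spread within each genotype was wide, and the lowest OsxCre;Stat3fl/fl library lay just above the highest OsxCre library. *Isg15* had the largest log2 fold change of the 10 genes, 0.86 (95% interval 0.25 to 1.47), with an edgeR adjusted p = 0.167. *Usp18* (chr6:121245906-121270917, GRCm38.p6) encodes the protease that removes ISG15 and also restrains signalling at IFNAR2. It had 45, 34 and 51 counts in the OsxCre libraries and 52, 38 and 66 counts in the OsxCre;Stat3fl/fl libraries. Scaled, these were 4.27, 3.36 and 4.27 CPM against 6.23, 4.65 and 7.70 CPM, without overlap. The log2 fold change of *Usp18* was 0.64 (95% interval 0.08 to 1.20, edgeR adjusted p = 0.249). In the RefSeq tables, *Isg15* and *Usp18* each overlap another annotated gene, *Gm46878* and *Gm44148*, and the way reads on such genes were counted is not given in the sources used here.

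The IFIT family genes lie together on chromosome 19, *Ifit2* at chr19:34550550-34576534, *Ifit3* at chr19:34583119-34588982 and *Ifit1* at chr19:34640889-34650009 (GRCm38.p6). They encode proteins that bind foreign RNA and block its translation. *Ifit3* had 12.1, 14.5 and 13.9 CPM in the OsxCre libraries and 28.4, 16.1 and 26.2 CPM in the OsxCre;Stat3fl/fl libraries. OsxCre;Stat3fl/fl library 2 was close to the OsxCre libraries, and libraries 1 and 3 were clearly above them. The log2 fold change of *Ifit3* was 0.80 (95% interval 0.32 to 1.29, edgeR adjusted p = 0.123). Without OsxCre;Stat3fl/fl library 2 it was 1.02, with an edgeR adjusted p = 0.0282. DESeq2's Wald test, run without the filter on low counts, gave *Ifit3* an adjusted p = 0.026. The edgeR test without that filter gave 0.0462.

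*Ifit1* showed the same order of OsxCre;Stat3fl/fl libraries, with 11.9, 5.87 and 10.3 CPM against 5.03, 7.42 and 6.70 CPM in the OsxCre libraries. OsxCre;Stat3fl/fl library 2 lay inside the OsxCre range, so the genotypes overlapped. The log2 fold change of *Ifit1* was 0.55 (95% interval -0.11 to 1.20, edgeR adjusted p = 0.383). *Ifit2* had 10.1, 12.4 and 10.6 CPM in the OsxCre libraries and 12.6, 14.2 and 15.9 CPM in the OsxCre;Stat3fl/fl libraries. The ranges of *Ifit2* lay close together without overlap, and its log2 fold change of 0.36 was the smallest of the 10 genes (95% interval 0.02 to 0.71, edgeR adjusted p = 0.281).

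Close paralogs of members, most of them of the IFIT genes, were counted on their own rows. *I830012O16Rik*, an older symbol of *Ifit3b*, had 32, 21 and 31 counts in the OsxCre libraries and 40, 20 and 50 counts in the OsxCre;Stat3fl/fl libraries. As in *Ifit3*, OsxCre;Stat3fl/fl library 2 was the lowest of its genotype. Its log2 fold change was 0.76 (95% interval -0.04 to 1.56, edgeR adjusted p = 0.327). *Gm14446* (*Ifit1bl1*), whose span in RefSeq overlaps that of *Ifit1*, had at most 11 counts in a library. *2010002M12Rik* (*Ifit1bl2*) had at most 4. Both were too low for the test, and *Gm9706* had 0. Reads shared by near-identical copies could have been split among these rows. The values of the members they resemble, such as *Ifit1* and *Ifit3*, are uncertain to that extent.

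*Rsad2* (chr12:26442743-26456452, GRCm38.p6) encodes viperin, an enzyme that makes a chain-terminating nucleotide for viral polymerases. It had 88, 71 and 314 counts in the OsxCre libraries and 182, 160 and 172 counts in the OsxCre;Stat3fl/fl libraries. Scaled, these were 8.35, 7.02 and 26.3 CPM against 21.8, 19.6 and 20.1 CPM. OsxCre library 3 was above all OsxCre;Stat3fl/fl libraries, while OsxCre libraries 1 and 2 were well below them. With all libraries, the log2 fold change of *Rsad2* was 0.55 (95% interval -0.49 to 1.59, edgeR adjusted p = 0.601). Without OsxCre library 3 it was 1.41, with an edgeR adjusted p = 0.0222. Without OsxCre library 1 or 2 it was 0.29 or 0.23. *Rsad2* therefore passed the test only when this control library was left out. OsxCre library 3 also had the highest summed level of neutrophil markers, 477 CPM against 277 and 300.5 CPM in the other OsxCre libraries, and the part of these cells in the *Rsad2* value was not tested.

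*Mx1* (chr16:97447035-97462906, GRCm38.p6) encodes a dynamin-like GTPase that blocks influenza virus. RefSeq lists it as a transcribed pseudogene in the C57BL/6J genome, since this strain is known to carry a broken copy. Its transcript was counted at low levels, with 3.70, 5.44 and 3.51 CPM in the OsxCre libraries and 8.14, 5.01 and 6.53 CPM in the OsxCre;Stat3fl/fl libraries. The genotypes overlapped, since OsxCre;Stat3fl/fl library 2 was below OsxCre library 2. The log2 fold change of *Mx1* was 0.64 (95% interval 0.02 to 1.26, edgeR adjusted p = 0.287).

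**Figure D2:**
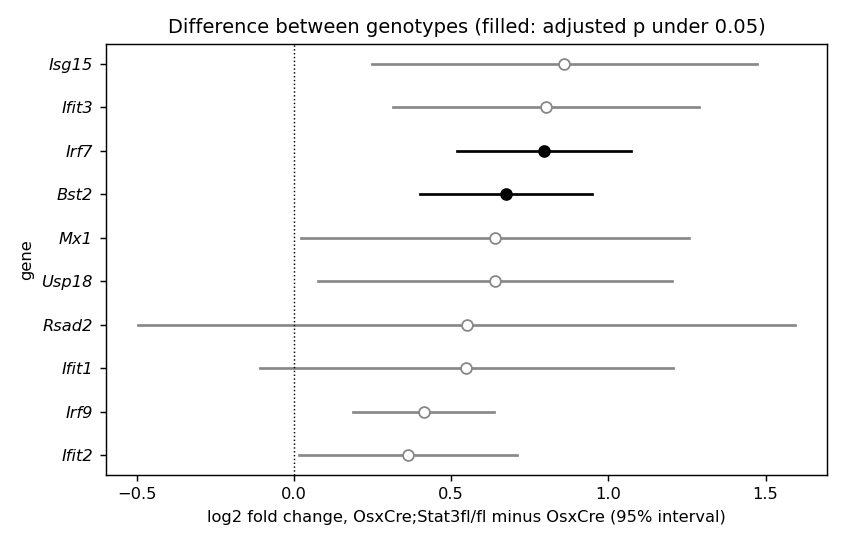
Log2 fold change of each gene, OsxCre;Stat3fl/fl minus OsxCre, from edgeR's quasi-likelihood test with TMM scaling, where bars are 95% intervals and filled points have an adjusted p under 0.05. Filled points are *Irf7* at 0.80 and *Bst2* at 0.67, and the intervals of *Ifit1* and *Rsad2* include 0.

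Over the 6 fits that left out a library, the log2 fold change moved most for *Rsad2*, between 0.23 and 1.41. *Irf9* moved least, between 0.36 and 0.48.

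**Figure D3:**
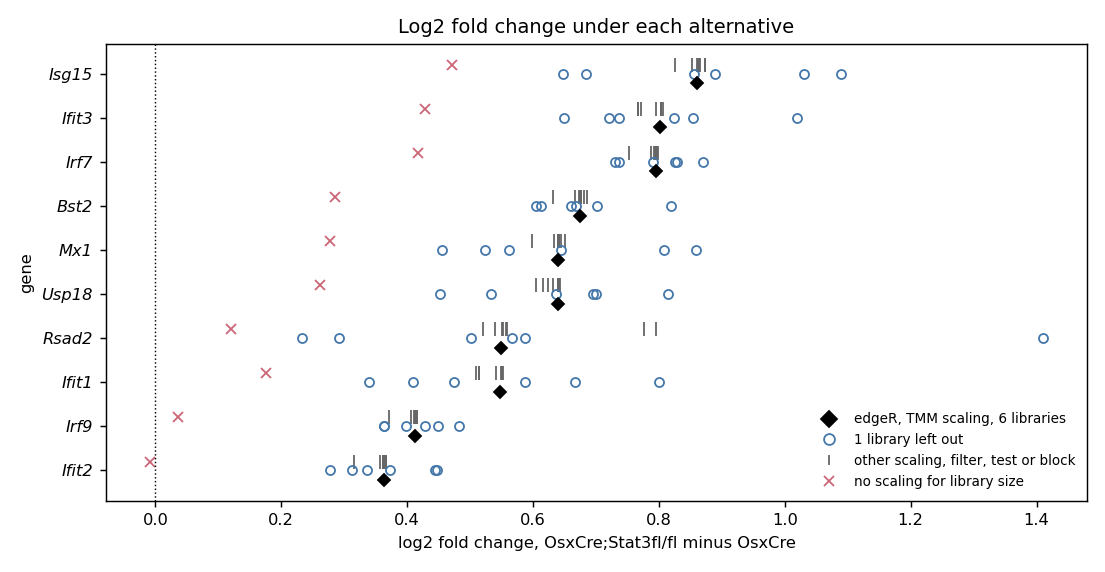
Log2 fold change of each gene, OsxCre;Stat3fl/fl minus OsxCre, with TMM and all 6 libraries (black diamonds), with 1 library left out (blue circles), with another scaling, filter, test or block (grey ticks) and without scaling for library size (red crosses). *Rsad2* runs from 0.23 to 1.41 with a library left out, and *Ifit2* lies at -0.01 without scaling.

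The OsxCre;Stat3fl/fl libraries were not alike in these genes. OsxCre;Stat3fl/fl library 2 was the lowest of its genotype for 8 of the 10 genes, where it was the lowest for 30.7% of all genes tested. The exceptions were *Ifit2* and *Bst2*, which were lowest in library 1. Library 2 was the highest of its genotype for 0 of the 10, whereas library 1 was highest for *Ifit1*, *Ifit3*, *Isg15*, *Rsad2* and *Mx1* and library 3 for *Ifit2*, *Irf7*, *Irf9*, *Usp18* and *Bst2*. In the OsxCre group, library 1 was the lowest for 5 genes, library 2 for 4 and library 3 for 1. Without OsxCre;Stat3fl/fl library 2, the median log2 fold change of the 10 genes was 0.80, and without the other libraries in turn it was between 0.57 and 0.76. Library 2 also had the highest summed level of skeletal muscle markers, 46260 CPM against 36930 and 31250 CPM in the other libraries of its genotype, and the part of muscle in these values was not tested.

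Levels were compared between genes as CPM per kilobase of annotated exon (GENCODE M1). In the OsxCre libraries, *Bst2* had the highest level, 52.7 ± 8.72 CPM per kilobase (SD, n = 3), followed by *Isg15* with 12.5 ± 3.85 and *Ifit3* with 7.75 ± 0.71. *Irf9* and *Irf7* followed at 5.29 ± 0.31 and 4.87 ± 0.39 CPM per kilobase, not apart beyond their spread. *Rsad2*, *Ifit2*, *Ifit1* and *Usp18* had levels of 3.21 ± 2.49, 2.81 ± 0.30, 2.40 ± 0.46 and 2.24 ± 0.30 CPM per kilobase, so neighbours from *Irf7* down to *Usp18* did not differ beyond their spread. *Mx1* was lowest with 1.16 ± 0.29. In the OsxCre;Stat3fl/fl libraries the order was the same except that *Irf7*, at 8.46 ± 0.79 CPM per kilobase, lay above *Irf9*, at 7.04 ± 0.56. *Bst2* reached 84.2 ± 2.74 and *Isg15* 22.8 ± 5.37 CPM per kilobase there.

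The genes that start the pathway were near or at the limit of detection. Of 20 listed interferon genes, 18 had a row, and 14 of these, *Ifnb1* among them, had 0 counts in every library. *Ifna2*, *Ifnab*, *Ifnk* and *Ifng* summed to 5 counts, with at most 1 in a library. For a gene with 0 counts in a library, the level that this allows reaches up to 3 counts, between 0.251 and 0.367 CPM in the 6 libraries, a limit that covers counting error only.

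Genes for the receptors and what carries their signal were read next. Of 9 genes for interferon receptors, kinases and STATs, edgeR called 0 at an adjusted p under 0.05 (0.776% higher and 0.481% lower of all genes tested). The median log2 fold change was 0.10. At an unadjusted p under 0.05, 2 were higher and 1 lower (8.03% and 8.34% of all genes tested), and 2 lay without overlap above OsxCre and 2 below (10.8% and 12.2%). *Ifnar1*, which encodes a chain of the type I receptor, had 116.7, 110.8 and 108.5 CPM in the OsxCre libraries and 106.7, 99.5 and 104.3 CPM in the OsxCre;Stat3fl/fl libraries. Its genotypes were just apart, with a log2 fold change of -0.11 (95% interval -0.27 to 0.05). *Ifnar2*, for the other chain, had 43.9 ± 3.99 and 48.8 ± 3.13 CPM, with a log2 fold change of 0.15 (95% interval -0.06 to 0.37). The kinase gene *Jak1* had 146 ± 6.26 and 156 ± 14.8 CPM (log2 fold change 0.10, 95% interval -0.11 to 0.30). The receptor genes of type II interferon had opposite signs, at 0.26 for *Ifngr1* (95% interval 0.03 to 0.48, edgeR adjusted p = 0.241) and -0.28 for *Ifngr2* (95% interval -0.46 to -0.09, edgeR adjusted p = 0.149). *Stat2* had 41.8 ± 1.54 and 48.8 ± 6.76 CPM and overlapped.

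Among 18 genes for nucleic acid sensors, adaptors and IRF factors, 1 was upregulated by the adjusted test of edgeR and 0 downregulated, and the median log2 fold change was 0.20. Of all genes tested, 0.776% were upregulated and 0.481% downregulated. A positive log2 fold change was found for 16 of the 18 (49.3% of all genes tested). At an unadjusted p under 0.05, 8 were higher and 1 lower (8.03% and 8.34% of all genes tested), and 9 lay without overlap above OsxCre and 1 below (10.8% and 12.2%). The gene that rose was *Zbp1*, a sensor of Z-form nucleic acid and itself interferon-inducible, with 3.32, 3.36 and 2.09 CPM in the OsxCre libraries and 11.6, 7.70 and 8.28 CPM in the OsxCre;Stat3fl/fl libraries. It was 3.15-fold higher, with a log2 fold change of 1.65 (SE 0.27, edgeR adjusted p = 0.0362). With any 1 library left out, its log2 fold change was between 1.45 and 1.77 and its adjusted p from edgeR between 0.0574 and 0.134. *Dhx58*, which encodes the RNA helicase LGP2, had 5.27 ± 0.66 and 10.2 ± 2.12 CPM (log2 fold change 0.96, edgeR adjusted p = 0.0828). The IRF genes *Irf2* and *Irf8* and the RNA sensor gene *Ifih1* had log2 fold changes of 1.15, 0.62 and 0.45, with edgeR adjusted p of 0.125, 0.0861 and 0.149. The negative values were those of *Tlr9*, at -0.09, and *Mb21d1*, which encodes the DNA sensor cGAS and had 4.61 ± 0.49 and 2.51 ± 0.33 CPM (log2 fold change -0.88, edgeR adjusted p = 0.116).

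A list of 50 other interferon-stimulated genes was read beside the 10. Of the 46 that could be tested, 4 were upregulated and 0 downregulated by the adjusted test of edgeR (0.776% and 0.481% of all genes tested). At an unadjusted p under 0.05, 26 were higher and 1 lower (8.03% and 8.34% of all genes tested), and 25 lay without overlap above OsxCre and 1 below (10.8% and 12.2%). The lower gene was *Ube2l6*, for an enzyme that joins ISG15 to proteins, with a log2 fold change of -0.32 (edgeR adjusted p = 0.214). With library totals in place of TMM, 1 was called. Their median log2 fold change was 0.45, with 42 of the 46 positive (49.3% of all genes tested). *Oasl2*, of the oligoadenylate synthetase family, had 158, 158 and 181 counts in the OsxCre libraries and 279, 207 and 279 counts in the OsxCre;Stat3fl/fl libraries. Scaled, it rose from 15.3 ± 0.33 to 30.4 ± 4.45 CPM, 1.99-fold (log2 fold change 1.00, SE 0.13, edgeR adjusted p = 0.018). *Rtp4* rose from 7.11 ± 0.69 to 14.3 ± 2.27 CPM and *Ifi204*, a DNA-binding protein of the IFI200 family, from 11.9 ± 1.83 to 21.7 ± 2.62 CPM. *Ifitm3*, which blocks virus entry, rose from 82.7 ± 5.31 to 111 ± 4.35 CPM, and its log2 fold change of 0.43 became 0.05 where no scaling was used. The edgeR adjusted p was 0.0423 for *Rtp4*, 0.0467 for *Ifi204* and 0.0475 for *Ifitm3*. With 1 library left out, between 0 and 2 of these 46 genes passed the adjusted test, namely 2 without OsxCre;Stat3fl/fl library 2 and 0 without each of the others. *Rnf213* and *Trex1* were listed at 0 counts in all 6 libraries. The way reads on these genes were counted is not given, so their RNA was not shown to be absent.

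Of 7 negative regulators of JAK-STAT signalling, edgeR called 0 at an adjusted p under 0.05 (0.776% higher and 0.481% lower of all genes tested) and 0 at an unadjusted p under 0.05 (8.03% and 8.34%). *Socs3* lay without overlap above OsxCre and *Socs1* below (10.8% and 12.2% of all genes tested), and the median log2 fold change was 0.06. *Socs3*, a feedback gene of STAT3, had 34.3 ± 4.05 and 40.9 ± 3.41 CPM (log2 fold change 0.25, 95% interval -0.01 to 0.51). *Ptpn11*, *Ptpn1* and *Pias1*, the most counted beside it, had log2 fold changes of 0.06, -0.08 and 0.09. *Socs1*, a feedback gene of interferon signalling, had 10.3 ± 0.41 and 8.75 ± 1.72 CPM (log2 fold change -0.24, 95% interval -0.66 to 0.18).

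**Figure D4:**
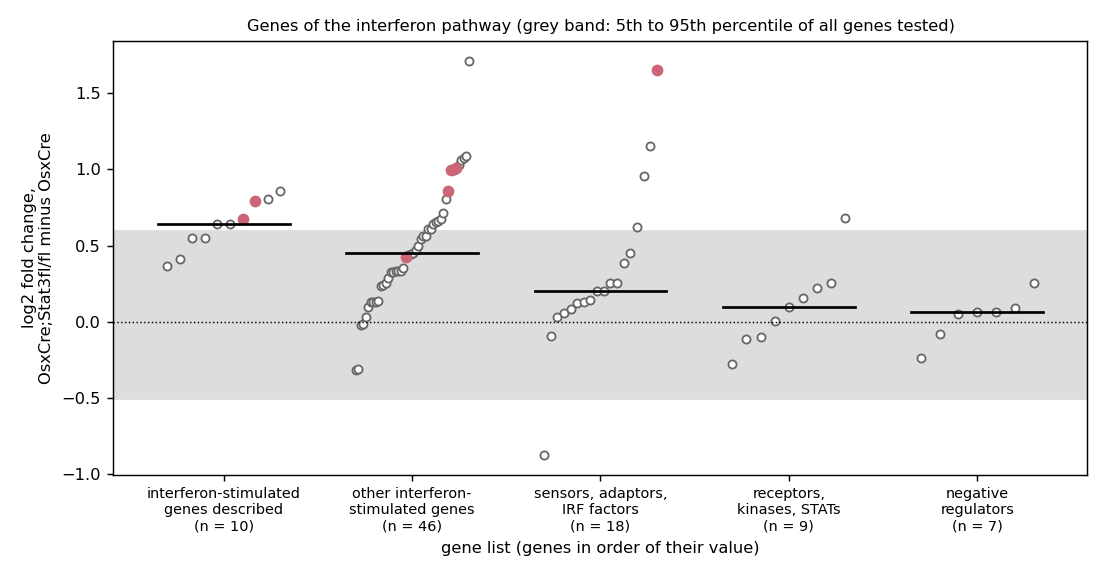
Log2 fold change, OsxCre;Stat3fl/fl minus OsxCre, of each gene tested in 5 lists, with black lines at the list medians, red points for an adjusted p under 0.05, and a grey band from the 5th to the 95th percentile of all genes tested (-0.51 to 0.59). The medians run from 0.64 for the 10 genes described and 0.45 for other interferon-stimulated genes to 0.06 for negative regulators.

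Blood and tissue cells that could carry these transcripts were followed through their markers. The summed level of 9 macrophage markers was between 559 and 588 CPM in the OsxCre libraries and between 641 and 669 CPM in the OsxCre;Stat3fl/fl libraries, without overlap (exact permutation test, two-sided, p = 0.1, the smallest that 3 libraries against 3 allow). Of these markers 6 of 9 had a positive log2 fold change, and *C1qb*, a complement gene, rose with a log2 fold change of 0.50 (edgeR adjusted p = 0.0253). It went from 103 to 146 CPM on average, the largest difference in CPM among the 9. *Ptprc*, *Emr1* and *Lyz2* were at -0.47, -0.29 and -0.10, of which *Ptprc* lay without overlap below OsxCre (edgeR adjusted p = 0.253). The sum of 8 neutrophil markers went the other way, from between 277 and 477 to between 118 and 195 CPM (exact permutation test, two-sided, p = 0.1), and *S100a9* fell with a log2 fold change of -1.25 (edgeR adjusted p = 0.0423). Of the 6 neutrophil markers that could be tested 5 had a negative log2 fold change, and *Mpo* was at 0.18 with overlap. *Elane* and *Ly6g*, too low for the test, had mean levels of 0.80 and 1.22 CPM and of 0.81 and 0.20 CPM. The summed level of 6 skeletal muscle markers was between 27310 and 29520 CPM in OsxCre and between 31250 and 46260 CPM in OsxCre;Stat3fl/fl. Of the muscle markers 5 of 6 had a positive log2 fold change and *Myh4*, a fast myosin gene, fell with -3.61 (edgeR adjusted p = 3.9e-05). The part of macrophages, neutrophils or muscle in the values of the 10 genes was not tested.

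*Bst2* is also a marker of plasmacytoid dendritic cells, the main interferon producers of the blood. The defining markers *Siglech*, *Ccr9*, *Ly6d* and *Klk1* had at most 14 counts in a library, and they summed to between 0.837 and 2.28 CPM in OsxCre and between 0.978 and 2.22 CPM in OsxCre;Stat3fl/fl (exact permutation test, two-sided, p = 0.9). *Tcf4* and *Cox6a2*, on the same list, are also expressed in other cells such as muscle and were left out of this sum after their values were seen. With them, the sums were between 269.3 and 316.2 CPM and between 290.8 and 401.0 CPM (exact permutation test, two-sided, p = 0.2). The 12 lymphoid markers summed to between 15.03 and 22.8 CPM and between 17.4 and 19.4 CPM, with *Cd8a* at 0 in all libraries. Sums of the endothelial markers overlapped between genotypes. Those of the osteoblast markers did too, but *Col1a1* alone made up most of them. Of the 8 osteoblast markers 6 had a negative log2 fold change, and *Ibsp*, for bone sialoprotein, fell with -0.66 (edgeR adjusted p = 0.0213). *Alpl*, for alkaline phosphatase, had 282 ± 37.4 and 193 ± 5.04 CPM without overlap (log2 fold change -0.54, edgeR adjusted p = 0.0578). The part of osteoblasts in the values of the 10 genes was not tested.

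**Figure D5:**
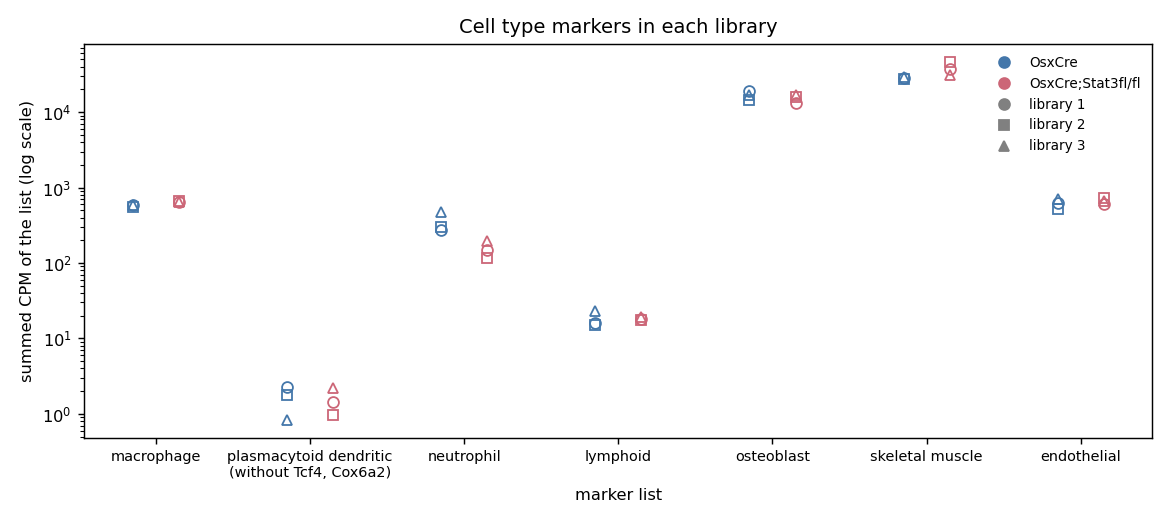
Summed CPM of each marker list in each library on a log axis, with OsxCre in blue, OsxCre;Stat3fl/fl in red and a symbol for each library. Neutrophil sums are lower in OsxCre;Stat3fl/fl (118 to 195 CPM against 277 to 477 CPM), and macrophage sums are higher (641 to 669 CPM against 559 to 588 CPM).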

How the data were processed

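The submitters' processing notes name HISAT2 and GRCm38, and the study's Methods name TopHat and mm9, so the mapping is not certain. The authors deposited whole-number read counts per gene symbol for each library, without normalization. The counting program, annotation and strand setting are not given in the sources used here. The labels describe polyA RNA of parietal bone, 3 libraries per genotype, numbered 1 to 3.

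The comparison ran in edgeR 4.0.16 under R 4.3.3. After filterByExpr (at least 10 counts in enough libraries and 15 in total) 15600 genes remained. With TMM scaling they entered the two-sided quasi-likelihood test of edgeR, and p-values were adjusted by Benjamini and Hochberg over all of them, with calls under 0.05. Intervals are at 95%. The study's own test, Cuffdiff, needs reads and was not run. Standard errors are the log2 fold change divided by the square root of F. Alternatives were DESeq2 1.42.0, limma 3.58.1 (voom), other scalings and filters, a replicate block, and leaving out each library. No libraries of a genotype were duplicates, since chi-square per degree of freedom was at least 8.17. On simulated counts of 15428 genes with 2-fold changes in 197, this comparison recovered 66% and made 6 other calls. The simulated spread followed the trend over genes and not that of each gene. The members differed by between 1.29-fold (*Ifit2*) and 1.82-fold (*Isg15*), so the 66% does not hold for them.

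The members and lists were chosen with earlier results of these data known. The genes named are the 10 members, *Stat3*, paralogs, pathway genes with an adjusted p under 0.05 or, for a list without one, its 4 with the most counts, and the 5 genes of most similar pattern. *Ifnar2*, *Stat2*, *Dhx58*, *Irf2*, *Irf8*, *Ifih1*, *Tlr9*, *Mb21d1*, *Socs1*, *Ube2l6*, *Rnf213*, *Trex1*, *Ifi27* and the marker genes were named after their values were seen. The study's Methods describe 3 littermates per genotype, which equals the number of libraries, so p-values measure the spread between these mice. Promoters and gene spans are from RefSeq's GRCm38.p6 tables, where 8 of 10 members matched a promoter. Exon lengths are from GENCODE M1 on NCBIM37 and served as lengths only. Python 3.11.15 with pandas 2.3.3 handled tables and matplotlib 3.10.9 drew the plots. Some items are not reported here.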

Additional observations from a re-analysis of the deposited data

How the results depend on the processing

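The direction of the 10 genes held under all alternatives except that *Ifit2* was -0.00805 without scaling for library size. That setting moved the median log2 fold change of the 10 from 0.64 to 0.27 and that of all genes to -0.38, so the distance between these medians was 0.64 with TMM and 0.65 without scaling, and 0 of the 10 were called. The number called was 2 or 3 under the other scalings, filters and tests, 3 by DESeq2's Wald test and without the filter. DESeq2's Wald test also ran without that filter, on 28016 genes, so it changed the test and the filter at once. Leaving out 1 library at a time gave between 0 and 2 called, never *Irf7* and *Bst2* together, and a median between 0.57 and 0.80. The count for the 46 other interferon-stimulated genes, whose alternatives were added after seeing the data, was 4, but 1 with library totals, 3 with upper-quartile scaling, where *Ifi204* had an edgeR adjusted p of 0.0555, 8 of 48 without the filter, 11 of 48 by DESeq2's Wald test, and between 0 and 2 with 1 library left out. Over all genes, 250 upregulated and 178 downregulated genes were called without the filter, 312 and 232 by DESeq2's Wald test, and 7 to 67 and 5 to 36 with 1 library left out. Fewer samples enter the latter, and the other causes were not tested.

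With the replicate number as a block, 0 of the 10 and 0 of the 46 genes were called, and 0 genes upregulated and 1 downregulated of 15600, with edgeR adjusted p of 0.123 for *Irf7* and 0.122 for *Bst2*. Deviations of same-numbered libraries correlated across genes at -0.10, -0.52 and -0.09, and not every library correlated best with its own number. Deviations from a mean of 3 libraries depend on each other, so these values cannot decide whether the numbers pair the samples. Whether a number marks a litter is not given in the sources used here. Over single genes, 4 values became called and 54 lost their call over the alternatives. *Usp18* and *Mx1* had the lowest depth of the 10, between 34 and 68 counts per library.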

Other observations

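The 5 genes whose log2 CPM was most like the mean of the 10 standardised genes over the 6 libraries were *Zranb1*, *Tcf25*, *Gab1*, *H2-T23* and *Tap1*, with Pearson's r of 0.996, 0.992, 0.988, 0.984 and 0.984 among 12163 genes with at least 5 CPM on average. *H2-T23* and *Tap1* belong to MHC class I antigen presentation. The values are a description over libraries of both genotypes, and the top of a ranking of that many genes.

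OsxCre library 3, which decided the value of *Rsad2*, was also high for *Ifi27*, chosen after its values were seen. *Ifi27* had 68.1, 65.5 and 155.5 CPM in the OsxCre libraries and 75.6, 122.5 and 88.9 CPM in the OsxCre;Stat3fl/fl libraries. These were the 2 genes, of 90 members and pathway genes tested, for which that library was at least 2-fold above both other OsxCre libraries, by 3.15-fold for *Rsad2* and 2.28-fold for *Ifi27*. Over all 15600 genes tested, 157 or 1.01% met the same line. The other 9 members did not.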
